A study of Mus musculus with 8 samples.

Results

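The UDP-glucuronosyltransferase genes Ugt1a1, Ugt1a6a, Ugt1a9, Ugt1a10, Ugt2a3, Ugt2b1, Ugt2b5, Ugt2b34, Ugt2b36 and Ugt2b38 were followed through the livers of homozygous Pus1 mutant mice and of wild-type mice. These 10 genes were chosen from measured values of the same 8 livers, so their genotype ratios are a description and carry no test. Array features (spots that hold one probe sequence) were assigned to a gene through the RefSeq transcript that the array design gives for them. Of the 10 genes, 8 had at least 1 such feature, and these made 9 of the 55681 features of the array. Ugt1a10 had 2 features and the other 7 genes had 1 each. No feature carried a transcript of Ugt1a1 or Ugt1a9, and these 2 genes have no value here. A filter that asked for a signal well above background in at least 4 of 8 samples left 8 of the 9 features among 22026 in all.

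The mutant group was 4 homozygous mutant livers, 2 of females and 2 of males, and the wild-type group was 4 livers with the same numbers of each sex. Both groups were C57BL/6J mice backcrossed for 5 generations, aged 14 to 16 weeks, with no treatment. The design text calls the livers of each genotype biological replicates. Pus1 encodes an enzyme that turns uridines of tRNAs, and of some other RNAs, into pseudouridines. The sources used here do not say which part of the gene is altered. On each of 4 2-colour arrays, cRNA of 1 mutant liver was set beside that of 1 wild-type liver, both from females on arrays 1 and 2 and both from males on arrays 3 and 4. The mutant was labelled with Cy5 on arrays 1 and 3 and with Cy3 on arrays 2 and 4.

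UDP-glucuronosyltransferases are enzymes of the endoplasmic reticulum that join glucuronic acid, taken from UDP-glucuronic acid, to bilirubin, steroid hormones, bile acids, drugs and other small molecules, which can then leave the cell in bile or urine. In the Ugt1a locus each gene has its own promoter and first exon, and all first exons are spliced to the same downstream exons. Ugt2a3 and the Ugt2b genes are separate genes of a cluster, with similar sequences. UGT1A1 is the enzyme that conjugates bilirubin in man, UGT1A6 enzymes prefer small planar phenols, and rodent Ugt2b enzymes conjugate steroids, drugs and other lipophilic compounds.

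In the RefSeq annotation of GRCm38.p6 the 9 Ugt1a genes lie on chromosome 1 and end together at the shared exons. Ugt1a10 is the farthest from that end, and Ugt1a9 is next to it. The 10 Ugt2a and Ugt2b genes follow one another on chromosome 5 with no other protein-coding gene among them. Pus1 is on chromosome 5 too, with 244 protein-coding genes between it and the Ugt2 cluster. The sources used here do not give the place of a feature's probe within its transcript, so signal from the shared Ugt1a exons, or from a close Ugt2b relative, cannot be told from that of the named gene.

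The upstream sequences show how alike the members are before any value is given. RefSeq promoter sequences of GRCm38.p6, each of 300 bases from 250 before to 50 after the start of transcription, were found for all 10 genes. They were searched on both strands for AGGTCA, the half-site bound by many nuclear receptors. The 120 bases before the start are printed in the direction of the gene, for Ugt1a10 and its neighbour Ugt1a9 and for the 3 most similar Ugt2b promoters. Capitals mark the longest run of bases that Ugt1a10 and Ugt1a9 share in this window and, in the Ugt2b promoters, the match to AGGTCA. Ugt1a10 is at chr1:88055291-88055410 (plus strand), Ugt1a9 at chr1:88070659-88070778 (plus strand), Ugt2b5 at chr5:87140341-87140460 (minus strand), Ugt2b38 at chr5:87424204-87424323 (minus strand) and Ugt2b36 at chr5:87092556-87092675 (minus strand).
Ugt1a10: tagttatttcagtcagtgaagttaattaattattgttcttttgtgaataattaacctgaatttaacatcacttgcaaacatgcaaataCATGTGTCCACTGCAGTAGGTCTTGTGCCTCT
Ugt1a9: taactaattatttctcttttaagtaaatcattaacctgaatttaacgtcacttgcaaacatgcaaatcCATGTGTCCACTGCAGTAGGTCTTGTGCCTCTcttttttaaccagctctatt
Ugt2b5: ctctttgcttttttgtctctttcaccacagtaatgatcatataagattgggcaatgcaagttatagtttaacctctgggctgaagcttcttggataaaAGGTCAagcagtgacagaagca
Ugt2b38: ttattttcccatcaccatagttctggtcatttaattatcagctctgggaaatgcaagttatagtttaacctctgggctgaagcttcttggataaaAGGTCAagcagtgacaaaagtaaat
Ugt2b36: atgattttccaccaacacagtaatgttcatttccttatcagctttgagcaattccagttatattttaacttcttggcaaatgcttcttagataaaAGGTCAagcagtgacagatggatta

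Over the full 300 bases, Ugt2b5 and Ugt2b38 were 84.2% identical in a global alignment, and Ugt1a10 and Ugt1a9 were 71.2% identical. Ugt2b36 was 63.5% identical to Ugt2b38 and 62.2% to Ugt2b5. The run shared by Ugt1a10 and Ugt1a9 was 32 bases long and began at −32 from the start in Ugt1a10 and at −52 in Ugt1a9. AGGTCA was present in Ugt1a9, before the printed bases, and in Ugt2b5, Ugt2b36 and Ugt2b38, and in 16.3% of all 32851 promoters of the table. In Ugt2b36 and Ugt2b38 it began at −25 and in Ugt2b5 at −22. The core motifs GCGTG (the aryl hydrocarbon receptor site), TGACNNNGC (the antioxidant response element) and TATAAA (the TATA box) were found in none of these 10 windows, and in 32.4%, 12.4% and 13.6% of all promoters. These are matches of letters in a window and were not set against binding data.

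Pus1 itself was read first as a check of the labels. Its 1 feature had log2 levels of 6.31, 6.80, 6.64 and 6.76 in mutants 1 to 4, against 8.45, 8.91, 8.46 and 8.83 in wild types 1 to 4. Its signal was called above background in no mutant (0 of 4) and in every wild type (4 of 4), so that Pus1 signal was at least 4.10-fold lower in mutants. Such a bound sets the brighter group's mean against the mean of the higher of the lowest signal called well above background and the feature's own signal on each dimmer array. Its adjusted p in limma was 0.0547. Among non-control spots, 42.2% to 44.0% were well above background in the samples of females and 36.8% to 37.9% in those of males, and at most 40 spots per sample were saturated. None of the 9 Ugt features was saturated or carried an outlier mark. Hepatocyte markers were well above background in all 8 livers for 8 of 8 genes. Of 5 kidney markers, Umod, Slc12a1 and Nphs1 were so in no liver, and none of the 5 was so in all 8. Of 5 intestine markers, Lct and Sis were so in no liver, but Fabp2 and Apoa4 were so in all 8. In bulk liver, fewer cells of a type and less RNA per cell cannot be told apart.

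Ugt1a10 had the widest spread over livers of the features that could be tested (SD over 8 livers 0.57 on the log2 scale). Its brighter feature (A_55_P2178800, transcript NM_201641) was well above background in all 8 livers. Log2 levels, which are normalised intensities, were 8.79 and 8.90 in the female mutants, against 10.29 and 10.40 in the female wild types. In males they were 9.74 and 9.76 in the mutants, against 9.57 and 9.75 in the wild types. The female mutants were thus the lowest of the 8 livers and the female wild types the highest, and the 4 males lay between them and close together.

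As log2 ratios of mutant over wild type, Ugt1a10 read −1.50 on array 1 and −1.49 on array 2, the 2 arrays of females with opposite dye orientation. On the arrays of males it read 0.17 and 0.00. The mean of the arrays of females was −1.50, a level 2.82-fold lower in female mutants than in female wild types, and the mean of the arrays of males was 0.09. Over the 4 arrays the fitted ratio was −0.71 ± 0.35 (SE, limma, adjusted p = 0.541). Without arrays 1, 2, 3 and 4 in turn it was −0.29, −0.33, −1.12 and −1.08, and the adjusted p over these and the other alternatives ran from 0.0651 to 1.00. The male ratio exceeded the female ratio by 1.58 ± 0.21 (SE), with 1 residual degree of freedom and an adjusted p of 0.858 in limma. Since Ugt1a10 was among genes chosen from these values, nothing is read from either fit.

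The ratio of Ugt1a10 on the arrays of females was set against the whole array as a description. With a bound chosen after its values were seen, a log2 ratio at or below −1 on both arrays of females was met by 1 of the 8 tested Ugt features and by 0.432% of all tested features (95 of 22003 with a value on every array). By mean ratio on the arrays of females, Ugt1a10 was number 104 from the lowest of these 22003. By the difference of male minus female mean ratio it was number 30 from the highest. With the software's processed signals in place of background-corrected ones, the share of all features past the same bound was 1.26%.

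**Figure D1:**
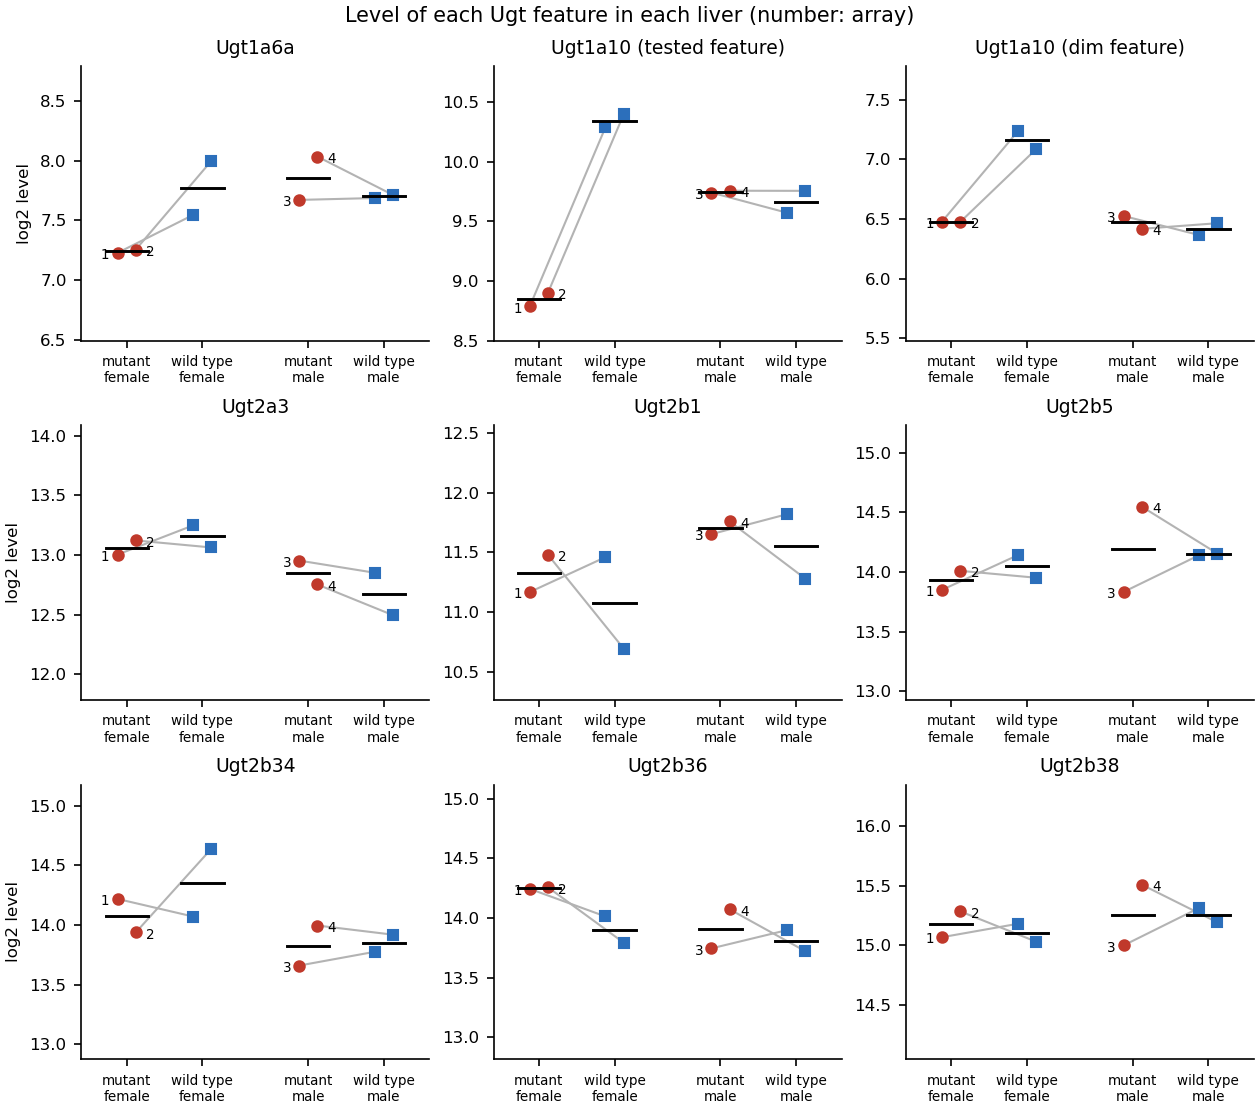
Log2 level (normalised intensity, vertical axis, the same span of log2 units in every panel) of the 9 Ugt features in each liver. Red circles are mutants and blue squares are wild types, females on the left and males on the right of each panel; grey lines join the 2 livers of an array, numbers name the array, and black bars are means of 2 livers. In females both Ugt1a10 features and Ugt1a6a were lower in both mutants than in both wild types, and Ugt2b36 was higher; over all 8 livers the genotypes overlapped for every tested feature.

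The second Ugt1a10 feature (A_55_P2178801, the same transcript) was dim. It was well above background in 2 of 8 livers, both female wild types, and did not pass the filter. Its log2 levels were 6.48 and 6.48 in the female mutants, against 7.23 and 7.08 in the female wild types. In males they were 6.53 and 6.42 in the mutants, against 6.37 and 6.47 in the wild types, all not well above background. The female mutants gave only a bound, at least 1.55-fold lower than in female wild types. Over both sexes the same calculation gave 1.19-fold lower in mutants. Only 2 of 4 wild types were well above background, so this value is not a bound. No ratio per array is read from this feature, since on each array at least 1 of the livers was not well above background.

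Ugt1a6a, which conjugates small phenols, was the other of the 10 genes in the Ugt1a locus with a feature (A_55_P2057577). Its log2 levels were 7.23 and 7.26 in female mutants, against 7.55 and 8.0 in female wild types. In males they were 7.67 and 8.04 in mutants, against 7.69 and 7.71 in wild types. The female mutants were the lowest 2 of the 8 livers. Log2 ratios were −0.32, −0.74, −0.02 and 0.32 on arrays 1 to 4, with a fitted ratio of −0.19 ± 0.19 (SE). Without array 2 the fitted ratio was 0.08, so its sign rested on that array. The feature was well above background in every liver but was the dimmest of the tested Ugt features. With the software's processed signals its ratios were −0.64, −1.07, −0.01 and 0.75 on arrays 1 to 4, so their size depended on the background correction.

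Of the genes outside the set, those whose levels followed Ugt1a10 most closely over the 8 livers were St3gal5, which makes the ganglioside GM3, and Krtap20-2, a keratin-associated protein. Likeness was the root-mean-square difference of log2 levels after centring each gene on its mean, among 11828 candidates. It was 0.197 for St3gal5 and 0.207 for Krtap20-2. St3gal5 had log2 ratios of −1.11, −1.61, 0.26 and −0.39 on arrays 1 to 4. Krtap20-2 had −1.05, −1.19, 0.30 and −0.26. Both genes were picked for likeness to Ugt1a10, so their lower ratios on the arrays of females are no separate result. On array 4 both lay below Ugt1a10, which read 0.00 there.

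**Figure D2:**
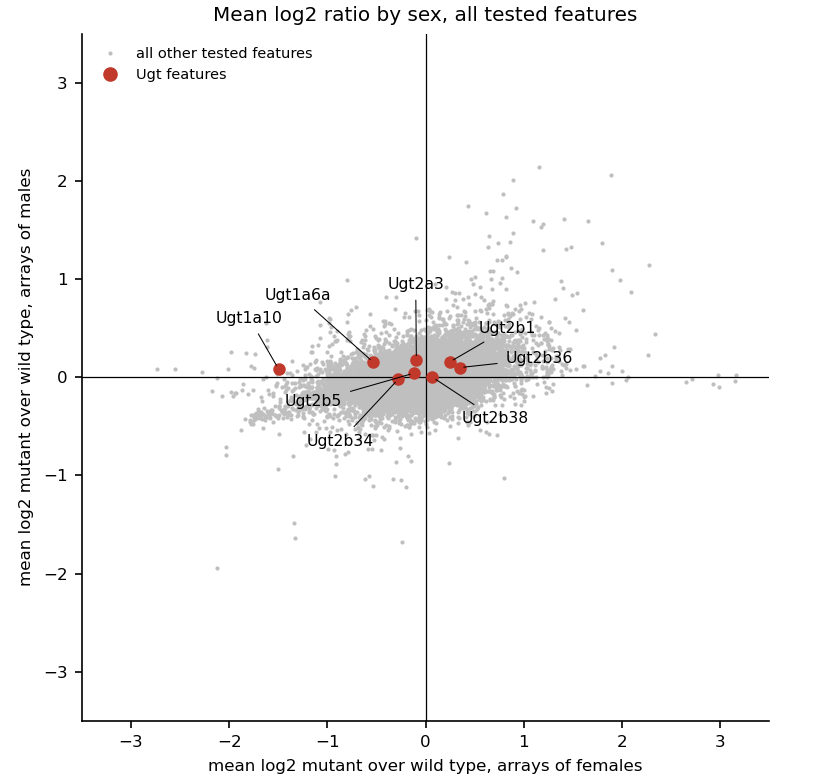
Mean log2 ratio of mutant over wild type on the 2 arrays of females (horizontal axis) and on the 2 arrays of males (vertical axis) for each feature tested. Grey points are all other features and red points the 8 Ugt features; Ugt1a10 lies at −1.50 and 0.09, and the other 7 lie within the mass of grey points.

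Ugt2a3, a glucuronosyltransferase that can act on bile acids in man, differed little by genotype. Its log2 levels (A_51_P298023) were 13.005, 13.12, 12.95 and 12.75 in mutants 1 to 4, against 13.25, 13.06, 12.85 and 12.50 in wild types 1 to 4. The groups overlapped, and the ratios were −0.25, 0.06, 0.10 and 0.26 on arrays 1 to 4. All 4 males lay below all 4 females, from 12.50 to 12.95 in males and from 13.005 to 13.25 in females.

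Among the Ugt2b genes of the set, Ugt2b1 had the largest difference between arrays. Its log2 levels (A_51_P245503) were 11.17, 11.48, 11.65 and 11.76 in mutants, against 11.46, 10.69, 11.82 and 11.28 in wild types. The ratios were −0.29, 0.79, −0.17 and 0.48, below 0 on both arrays where the mutant carried Cy5 and above 0 on both where it carried Cy3. The fitted coefficient for Cy5 over Cy3 was −0.43 ± 0.11 (SE, limma, adjusted p = 0.609), and the fitted genotype ratio was 0.20 ± 0.11 (SE).

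Ugt2b5 and Ugt2b38, the pair with the most similar promoters, showed the same order of signs. Ugt2b5 (A_55_P1975080) had log2 levels of 13.85, 14.01, 13.83 and 14.55 in mutants, against 14.14, 13.95, 14.14 and 14.15 in wild types, with ratios of −0.29, 0.06, −0.31 and 0.39. Ugt2b38 (A_66_P131389) had log2 levels of 15.07, 15.29, 15.00 and 15.51 in mutants, against 15.18, 15.03, 15.32 and 15.19 in wild types, with ratios of −0.11, 0.25, −0.31 and 0.32. In both genes the mutant on array 4 was the highest of the 8 livers, and the genotypes overlapped. The Cy5 over Cy3 coefficient was −0.26 ± 0.11 (SE) for Ugt2b5 and −0.25 ± 0.10 (SE) for Ugt2b38, each larger in size than the fitted genotype ratio of −0.04 ± 0.11 (SE) and 0.04 ± 0.10 (SE).

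Signs that followed the dye on all 4 arrays were counted after these values were seen. They were found for 3 of the 8 tested Ugt features (Ugt2b1, Ugt2b5 and Ugt2b38) and for 17.3% of all features. With the software's processed signals they were found for 2 of the 8 and for 16.5% of all features. Ugt2b38 then read 0.004 on array 1 and no longer followed the dye. The median ratio of the 8 features was −0.27, 0.06, −0.13 and 0.32 on arrays 1 to 4, against 0.00, −0.04, 0.02 and −0.01 over all features. On array 4, 0 of 8 were below 0, against 52.5% of all features. On arrays 1 and 3, 6 of 8 were below 0, against 49.5% and 47.4% of all features. On array 2, 3 of 8 were below 0, against 53.1% of all features. Whether the dyes account for these signs was not tested.

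Ugt2b34 (A_55_P1977418) did not share this order. Its log2 levels were 14.22, 13.94, 13.66 and 13.99 in mutants, against 14.07, 14.64, 13.77 and 13.92 in wild types, and its ratios were 0.15, −0.70, −0.12 and 0.08. Wild type 2 stood highest, and without array 2 the fitted ratio was 0.05 in place of −0.15 ± 0.16 (SE). Ugt2b36 (A_51_P102438) had log2 levels of 14.24, 14.26, 13.74 and 14.07 in mutants, against 14.01, 13.79, 13.90 and 13.72 in wild types. Its ratios were 0.23, 0.46, −0.15 and 0.35, above 0 on 3 of 4 arrays, with a fitted ratio of 0.22 ± 0.12 (SE).

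**Figure D3:**
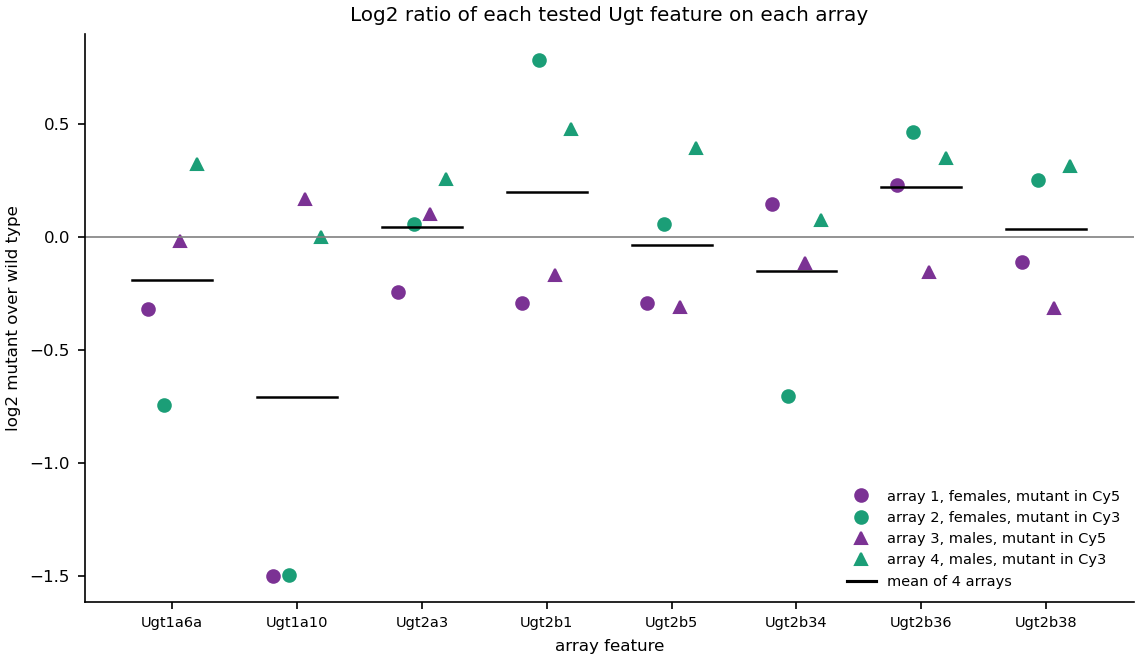
Log2 ratio of mutant over wild type (vertical axis) of the 8 tested Ugt features on each of 4 arrays. Circles are arrays of females and triangles arrays of males, purple where the mutant carried Cy5 and green where it carried Cy3, and black bars are means of 4 arrays; for Ugt2b1, Ugt2b5 and Ugt2b38 the green points lie above 0 and the purple points below.

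Over all tested features the genotype fit in limma, with a dye coefficient and Benjamini-Hochberg adjustment, called 0% at an adjusted p under 0.05 (0 of 22026, and 1997 at an unadjusted p under 0.05). Without array 4 it called 2284, none of them a Ugt feature. Of the 8 Ugt features, 4 had a ratio above 0 and 4 below, with a median of 0.00, and their adjusted p ran from 0.541 to 0.915. The median size of their ratios, sign left aside, was 0.17, against 0.12 over all features. Beside Ugt1a10, the means of the genotypes lay close. They were 7.55 ± 0.38 in mutants and 7.74 ± 0.19 in wild types for Ugt1a6a, 12.96 ± 0.15 in mutants and 12.92 ± 0.32 in wild types for Ugt2a3, and 11.52 ± 0.26 in mutants and 11.31 ± 0.47 in wild types for Ugt2b1 (SD, n = 4 each). For Ugt2b5 the means were 14.06 ± 0.33 in mutants and 14.10 ± 0.10 in wild types, for Ugt2b34 13.95 ± 0.23 in mutants and 14.10 ± 0.38 in wild types, for Ugt2b36 14.08 ± 0.24 in mutants and 13.86 ± 0.13 in wild types, and for Ugt2b38 15.22 ± 0.23 in mutants and 15.18 ± 0.12 in wild types (SD, n = 4 each). For Ugt1a10 they were 9.30 ± 0.52 in mutants and 10.002 ± 0.40 in wild types (SD, n = 4 each), with the ratios by sex given above. Apart from Ugt1a10, each difference between the means was smaller than the larger of both SDs. One sign on all 4 arrays was found for 0 of the 8 Ugt features and for 17.8% of all features. Separation of all 4 mutants from all 4 wild types was found for 0 of 8 and for 2.08% of all features.

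**Figure D4:**
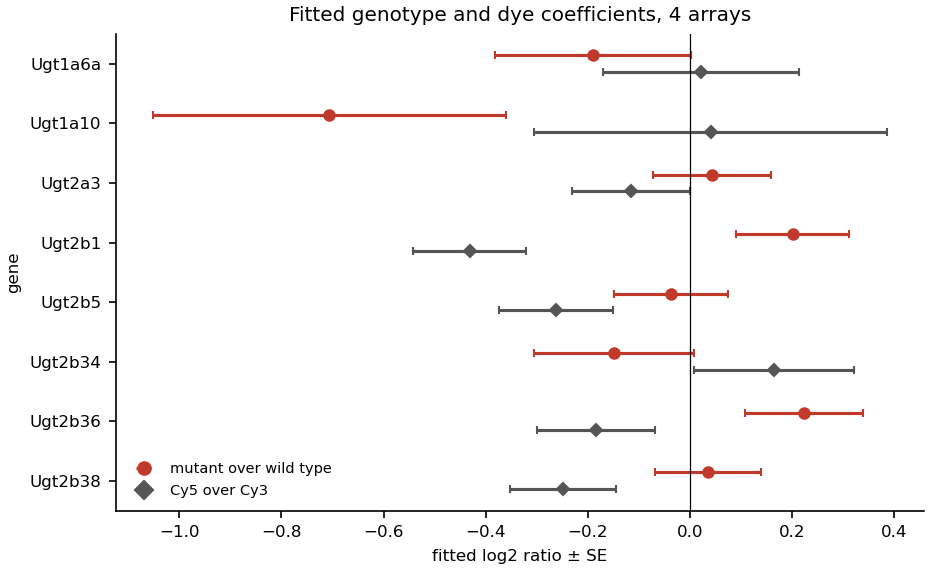
Fitted log2 ratio of mutant over wild type (red circles) and of Cy5 over Cy3 (grey diamonds) for the 8 tested Ugt features, with standard errors as bars, from limma on 4 arrays. The dye coefficient was the larger in size for Ugt2a3, Ugt2b1, Ugt2b5, Ugt2b34 and Ugt2b38, and the genotype coefficient for Ugt1a6a, Ugt1a10 and Ugt2b36.

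Males and females were compared next, between arrays, since they were never on the same array. The separate-channel fit in limma called 0.214% of features at an adjusted p under 0.05 (47 of 22003, 22 higher and 25 lower in males, and 3566 at an unadjusted p under 0.05). Without arrays 1, 2, 3 and 4 in turn it called 341, 1984, 139 and 96, again with no Ugt feature. None of the 8 Ugt features was called, and their adjusted p ran from 0.371 to 0.779. Ugt2a3 averaged 12.76 ± 0.20 in males and 13.11 ± 0.10 in females (SD, n = 4 each), a difference of −0.35 ± 0.16 (SE, adjusted p = 0.371 in limma). Among the Ugt2b genes, male minus female differences were 0.43 ± 0.21 for Ugt2b1, 0.18 ± 0.20 for Ugt2b5, −0.38 ± 0.36 for Ugt2b34, −0.22 ± 0.16 for Ugt2b36 and 0.11 ± 0.17 for Ugt2b38 (SE), and that of Ugt1a6a was 0.27 ± 0.29 (SE). All 4 males below all 4 females was found for 1 of 8 Ugt features, Ugt2a3, and for 11.3% of all features. All 4 males above all 4 females was found for 0 of 8 and for 13.2% of all.

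The sex fit depended on how arrays were scaled to each other. Without that scaling 63 features were higher and 8777 lower in males, and the median of all features moved to −0.60 on the log2 scale. Ugt2a3 then read −1.12, below that median, and Ugt2b1, which was 0.43 ± 0.21 (SE) higher in males with the scaling, read −0.38, above it. Ugt1a10 averaged 9.71 ± 0.09 in males and 9.59 ± 0.87 in females (SD, n = 4 each), with the wide spread in females that its levels show. A difference between the sexes in the genotype ratio was called for 0% of all features (0 of 22026, and 1224 at an unadjusted p under 0.05) and for 0 of the 8 Ugt features in limma.

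The other Ugt genes of the array were read from a list of 12, of which 7 had a feature and 5 passed the filter. None was called by genotype or by sex, 2 had a ratio above 0 and 3 below, and the median was −0.01. Ugt2b35, which lies between Ugt2b1 and Ugt2b36, had 2 features. The brighter one had ratios of 0.54, 0.87, −0.38 and 0.60, with a fitted ratio of 0.41 ± 0.17 (SE). The other had ratios of 0.25, 0.44, 0.08 and 0.30, above 0 on all 4 arrays, with a fitted ratio of 0.27 ± 0.10 (SE). Ugt2b37, the neighbour of Ugt2b5, had ratios of −0.35, 0.27, −0.51 and 0.47, signs that follow the dye as in Ugt2b5 and Ugt2b38. Ugt1a6b, the close relative of Ugt1a6a, had fitted ratios of −0.06 ± 0.17 and −0.01 ± 0.10 (SE) for its 2 features. Ugt3a2 had a fitted ratio of 0.12 ± 0.12 (SE) for its brighter feature and of −0.22 ± 0.13 (SE) for its other one, so its features disagreed in sign.

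Genes that supply UDP-glucuronic acid or export glucuronides were taken from a list of 13, all tested. None was called by genotype or sex, 8 had a ratio above 0 and 5 below, and the median was 0.07. Gusb, the lysosomal enzyme that cleaves glucuronides, had a ratio of 0.33 ± 0.13 (SE), with 0.05, 0.90, −0.01 and 0.36 on the 4 arrays. Abcc3, which exports glucuronides to the blood, had −0.04, −1.06, −0.24 and −0.24. Slc35d1, which carries UDP-glucuronic acid into the endoplasmic reticulum, had −0.09, −1.12, 0.03 and −0.19. In each of these 3 genes the ratio largest in size was on array 2, which had the widest spread of ratios over all features (SD 0.61, against 0.26 to 0.35 on the others).

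Regulators of Ugt genes were taken from a list of 17, of which 16 were tested. None was called, 6 had a ratio above 0 and 10 below, and the median was −0.11. Nr1i3, the nuclear receptor CAR, had −0.73, −0.71, −0.25 and −0.01, with a fitted ratio of −0.43 ± 0.16 (SE). Foxa1 had a fitted ratio of −0.52 ± 0.27 (SE) and Ppara −0.53 ± 0.28 (SE), with array 2 alone at −1.67 for Ppara.

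Other known targets of these regulators were taken from a list of 14, of which 12 were tested. None was called by genotype or by sex, 9 had a ratio above 0 and 3 below, and the median was 0.22. Ephx1, a microsomal epoxide hydrolase, had ratios of 0.48, 0.17, 0.24 and 0.60. Cyp1a2, a target of the aryl hydrocarbon receptor, had 0.57, 0.57, 0.04 and 0.25. Both were above 0 on all 4 arrays. Gclm, a subunit of the enzyme that starts glutathione synthesis, had 0.05, 1.13, −0.06 and 0.43. Cyp2b10, the best known target of CAR, had log2 levels of 15.85, 15.68, 13.25 and 10.37 in mutants, against 15.47, 15.12, 10.92 and 10.695 in wild types. All 4 males were below all 4 females for Cyp2b10, and mutant 3 stood above the other males by more than 2 log2 units.

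Markers of other cells were read in the same livers, and none was called by genotype. All 7 Kupffer cell markers had a ratio above 0 on every array, with a median of 0.70, and their mean level ran from 10.87 to 11.55 in mutants and from 10.25 to 11.06 in wild types. One sign on all 4 arrays, in either direction, was found for 17.8% of all features. The 4 neutrophil markers had mean levels of 8.60 to 9.03 in mutants and 7.05 to 8.60 in wild types, with Ltf not well above background in any liver. Only 2 of the 4, S100a8 and S100a9, passed the filter. On arrays 1 to 4 S100a8 had ratios of −0.09, 2.91, 2.34 and 0.88, and S100a9 had −0.19, 3.51, 2.30 and 0.89. Both were thus below 0 on array 1. In females the Kupffer cell markers were at 11.38 to 11.55 in mutants and 10.25 to 10.97 in wild types. Hepatocyte markers were at 17.28 to 17.51 in mutants and 17.15 to 17.63 in wild types. The median ratio was −0.02 for 5 tested sinusoidal endothelial markers and 0.07 for 3 stellate cell markers. It was 0.02 for 3 cholangiocyte markers, and the 1 tested lymphocyte marker read −0.18. The part of these cells in the Ugt values was not tested.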

How the data were processed

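Liver RNA of 8 mice was measured on 4 2-colour Agilent arrays, from 200 ng of RNA per labelling. Per the file headers and the submitters' processing notes, Agilent Feature Extraction 10.7.3.1 made the array files, which hold a linear intensity per spot and channel (median signal, local background and a processed signal already corrected for background and dye). Per the file headers, other columns are marks of 0 or 1, such as well above background. The deposited series table holds log2 values whose centring is not stated. Set against the processed signals, its differences within arrays correlated at 0.996 over 22026 features, so it was used only as an alternative. Its scale and centring stay unknown. A further 68 per-sample columns went unused.

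The median signals were corrected with normexp (offset 50), which takes the place of the mean signals named in the planned design because the files give medians. Ratios were normalised by loess within each array, and levels by Aquantile between arrays, in limma 3.58.1 (R 4.3.3). Features well above background in at least 4 of 8 samples were tested. Genotype was fitted to within-array ratios with a dye coefficient, genotype by sex with 1 coefficient per sex, and sex in a separate-channel fit with a within-spot correlation of 0.794 that left out 23 features with a marked spot. Adjustment was by Benjamini-Hochberg, and the scripts were checked on data made with known changes. Those changes were larger than any Ugt ratio reported here, so the recovery of smaller changes was not checked. The p-values measure only the spread between these samples, and the number of arrays limits the precision.

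A replicate number names a shared array and so pairs the samples. Deviations of same-numbered samples from the group means correlated at 0.689, 0.168, 0.568 and 0.641 over features. Both livers of an array are also of the same sex, so these correlations do not separate array from sex. Each array was treated as a block. No 2 samples held identical values.

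The 10 members, the lists and the tests were chosen with earlier results of these data known. Every feature of a member was named, with Pus1, for a member whose SD over the 8 livers exceeded 0.5 the 2 most similar genes, and up to 4 genes of each list with the smallest unadjusted p by genotype. Some genes that this rule names are not reported here. A listed gene with several features is counted by its brightest. Gene symbols came from RefSeq accessions (GRCm38.p6), which named 27656 features, and 359 accessions of transcripts had no match. Promoters were read with Python 3.11.15 and aligned with Biopython 1.88, and figures were drawn with matplotlib 3.10.9. Alternatives were the processed signals, an offset of 16, other filters, 1 feature per gene, no dye term, no block, no scaling between arrays, the series table, and each array left out.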

Additional observations from a re-analysis of the deposited data

Results flagged for a closer look

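The level of Ugt2b5 in wild type 2, a female, was 13.95 on the log2 scale, and the other 3 wild types lay at 14.14 to 14.15. Its gap to the nearest of them was larger, as a share of the range of the 4, than Dixon's test allows at the 95% level. It was 1 of 18 groups checked, and chance flags about 1 in 20 such groups.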

How the results depend on the processing

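The number of arrays, 2 per sex, limits every value, and no Ugt feature was called by genotype under any alternative run. The genotype count over all features, 0 in the report, was 1 with an offset of 16, 4 with no filter on dim features, 3 with no dye coefficient, 3 with no replicate block, and from 0 to 2284 with 1 array left out, the last without array 4 (992 higher and 1292 lower in mutants). It was 0 in the other alternatives. The sex count, 47 in the report, was 7 where all 8 samples had to be well above background, 4048 with no dye coefficient, 4087 with no replicate block, and 8840 with no scaling between arrays. It ran from 96 to 1984 with 1 array left out (341, 1984, 139 and 96 without arrays 1 to 4). With no scaling between arrays the male minus female difference changed sign for Ugt1a10 (−0.69) and Ugt2b38 (−0.58), which became called, and for Ugt1a6a (−0.22), Ugt2b1 (−0.38) and Ugt2b5 (−0.60), which did not. Ugt2a3 (−1.12) and Ugt2b36 (−0.99) became called with their sign kept. Ugt2b5 also changed sign without array 4. The median male minus female difference over all features was −0.60 with no scaling between arrays. The mean ratio of Ugt1a10 on the arrays of females was −1.63 with processed signals, −1.55 with an offset of 16 and −1.62 with the series table. With single arrays left out it ran from −1.50 to −1.49. The genotype ratio changed sign with 1 array left out for Ugt1a6a, Ugt2b5 and Ugt2b34 (array 2), Ugt2a3 (arrays 3 or 4) and Ugt2b38 (array 1), and all 96 ratios under alternatives stayed within 1 SD over arrays of the reported ones. Genotype by sex stayed at 0 calls in the alternatives run and could not be fitted with an array left out. Causes were not tested.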
